A study of Mus musculus with 4 samples.

Results

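The genes described here are 7 genes of the brush border, the dense carpet of microvilli on the apical face of absorptive epithelia: Cdhr2, Cdhr5, Vil1, Ezr, Espn, Pdzk1 and Slc2a2. They are 7 of 24015 genes in the count files, and all 7 passed the filter on low counts that left 14259 genes for testing. They were chosen by their known roles and on their levels in the same comparison of Control with Trim33-deficient libraries that is described below, so their differences are given as a description. They were in the fit over the whole table, and how many of them it called is given below only as a count. RNA was sequenced from mouse embryoid bodies, aggregates of differentiating embryonic stem cells, harvested on day 7. Per the labels, the stem cell lines came from embryos of an outbred strain, homozygous for a floxed Trim33 allele and carrying UbcCreERT2, and were used at passages 8 to 10 after growth without feeders in LIF and 2i. UbcCreERT2 is a Cre recombinase under the ubiquitin C promoter that tamoxifen activates in principle in any cell type. The 2 Trim33-deficient libraries came from bodies in which 4-hydroxytamoxifen induced the deficiency on day 4. The genotype of the 2 Control libraries is labelled wild type, which leaves unstated if these bodies had the floxed allele, the transgene or 4-hydroxytamoxifen. The labels speak of independent pairs and do not say how many lines or clones were used, so any statement on spread refers to these libraries.

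Microvilli are held up by bundles of actin filaments, which villin (Vil1) and espin (Espn) cross-link, and ezrin (Ezr) ties the bundle to the membrane. The protocadherins Cdhr2 and Cdhr5 bridge the tips of neighbouring microvilli, with Ush1c, Anks4b and Myo7b bound to their cytoplasmic tails. Pdzk1 is a PDZ scaffold that holds transporters at the apical membrane, and Slc2a2 encodes the low-affinity glucose transporter GLUT2. Such membranes are known from the intestine, the kidney proximal tubule and the visceral endoderm, the absorptive epithelium that surrounds the early mouse embryo.

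The 4 libraries held 10422738 to 13808837 counts in genes. Control replicate 1 stood apart, as its log2 CPM (counts scaled to a common library size) correlated with that of the other libraries at a Pearson r of 0.932 to 0.952 over genes, which are not independent, against 0.967 to 0.978 between the others. Trim33 itself was counted 1203 and 1117 times in Control and 608 and 495 times in Trim33-deficient bodies, and 42.6% of its normalised level was left. Transcripts without the floxed exons may be included, since their position was not looked up. In bulk RNA, fewer cells of a type and less RNA per cell cannot be told apart, which holds for every difference below.

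The promoters of the 3 genes with the lowest log2 fold changes and of Ezr, with the value nearest 0, are shown so that their letters can be read beside these differences. They were read from RefSeq on build GRCm38.p6, whereas the submitters' processing notes name mm9, and each covers the 250 bases before a start site, 5′ to 3′ on the strand of the gene. Capitals would mark a match to 1 of the 5 motifs searched, and these 4 windows hold none. The promoters of Cdhr2 (chr13:54701213-54701462, plus strand), Slc2a2 (chr3:28697653-28697902, plus strand), Vil1 (chr1:74409134-74409383, plus strand) and Ezr (chr17:6782781-6783030, minus strand) read as follows.
Cdhr2: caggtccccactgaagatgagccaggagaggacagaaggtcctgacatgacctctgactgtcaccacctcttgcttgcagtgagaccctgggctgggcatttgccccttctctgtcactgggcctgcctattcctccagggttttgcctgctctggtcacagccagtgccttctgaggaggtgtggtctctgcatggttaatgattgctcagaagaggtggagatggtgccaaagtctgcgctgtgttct
Slc2a2: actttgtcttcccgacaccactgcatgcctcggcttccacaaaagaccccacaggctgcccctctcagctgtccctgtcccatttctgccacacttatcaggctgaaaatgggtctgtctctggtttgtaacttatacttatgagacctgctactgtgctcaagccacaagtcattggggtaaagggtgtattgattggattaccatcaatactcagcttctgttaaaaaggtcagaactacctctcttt
Vil1: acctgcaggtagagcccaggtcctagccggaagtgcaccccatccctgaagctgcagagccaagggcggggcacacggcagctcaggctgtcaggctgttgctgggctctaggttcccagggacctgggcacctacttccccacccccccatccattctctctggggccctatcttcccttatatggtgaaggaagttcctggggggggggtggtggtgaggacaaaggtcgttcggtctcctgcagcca
Ezr: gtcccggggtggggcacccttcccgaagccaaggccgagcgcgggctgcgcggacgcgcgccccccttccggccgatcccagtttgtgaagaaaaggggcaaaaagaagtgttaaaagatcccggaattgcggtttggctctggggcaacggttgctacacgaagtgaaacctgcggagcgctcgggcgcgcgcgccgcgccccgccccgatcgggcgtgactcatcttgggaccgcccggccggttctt

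RefSeq listed 10 start sites for the 7 genes, 3 of them for Espn and 2 for Pdzk1. The motifs were searched on both strands in all 32851 promoters of this table, each with 250 bases before and 50 after the start. The HNF4 motif CAAAGTCC occurred once, at base 15 after the first of the Pdzk1 start sites, and in 1.42% of all promoters. For 8 of the 10 start sites the first 30 transcribed bases were found in a GENCODE M21 transcript of the gene. This Pdzk1 start site was not among those 8. The 30 bases around the motif (chr3:96830068-96830097, plus strand) are shown, with the motif in capitals, because Pdzk1 was the single gene of the 7 with this match.
Pdzk1: caatctttgtcCAAAGTCCagtgagttcca
A CDX motif, TTTATNG, lay on the opposite strand with its first base at −197 from 1 of the Espn start sites, and occurred in 10.9% of all promoters. The GATA motif AGATAA had no match in the promoters of the 7 genes and occurred in 11.2% of all promoters. The same was true of the FOXA motif TGTTTAC, found in 3.65% of all. It was true as well of the SMAD palindrome GTCTAGAC, found in 0.213% of all. The matches in Pdzk1 and Espn do not overlap another match. The 250 bases differed in base composition, with a GC content of 67.2% for Ezr, 62.8% for Vil1, 56.0% for Cdhr2 and 47.2% for Slc2a2. These matches describe letters in a window, and which of the start sites the cells used was not measured.

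The study compares Trim33-deficient with Control bodies. The fitted log2 fold change was below 0 for all 7 genes and its median was −1.61, against −0.0014 over all 14259 genes tested. In 5 of them, Cdhr2, Slc2a2, Vil1, Pdzk1 and Espn, the higher Trim33-deficient library lay under the lower Control library, which was so for 21.4% of the genes tested. The groups overlapped for Cdhr5 and Ezr. The edgeR quasi-likelihood test called 0 of the 7 genes, and it called 0.0140% of all genes lower. At an unadjusted p under 0.05 it put 5 of the 7 lower, and 4.78% of all genes, and limma voom called 0 of the 7. DESeq2 called 4 of the 7 lower (Cdhr2, Pdzk1, Slc2a2 and Vil1), and 0.807% of all genes. With any single library left out DESeq2 called fewer of the 7, and its number of calls among all genes changed too. The authors' deposited table lists Cdhr2, Slc2a2 and Pdzk1 as lower, 3 of the 7, where it lists 0.291% of the genes in the files as lower. Nothing is read from these counts, since this contrast chose the genes.

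**Figure D1:**
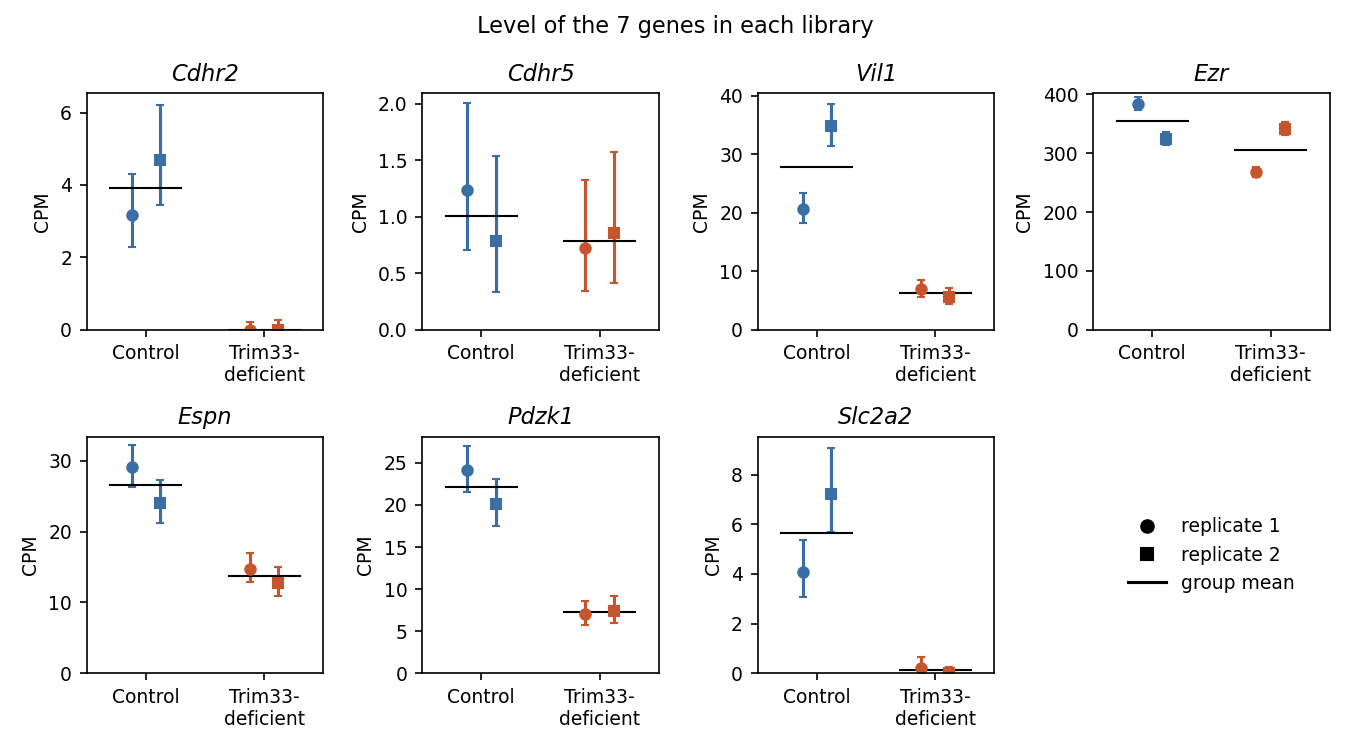
Level of each of the 7 genes in each library, in CPM on a linear axis from 0; circles are libraries numbered 1 and squares libraries numbered 2, bars are exact Poisson 95% intervals (for 0 counts, up to 3 counts), and lines are group means. Cdhr2 and Slc2a2 lie near 0 in both Trim33-deficient libraries, whereas the groups overlap for Cdhr5 and Ezr.

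Among the adhesion genes, Cdhr2, which forms the tip links together with Cdhr5, had 41 and 48 counts in Control replicates 1 and 2 and 0 in both Trim33-deficient libraries. Its level in Control was 3.93 ± 1.07 CPM (SD, n = 2). For a count of 0, a floor of 3 counts per library was taken, which is 0.236 CPM on average. The Control mean over this floor puts Cdhr2 at least 16.6-fold lower in Trim33-deficient bodies, with no error of that mean included. The Control counts were few and yet both lay far from the empty Trim33-deficient libraries. Its partner Cdhr5 was counted 16 and 8 times in Control and 10 and 10 times in Trim33-deficient bodies. The mean levels were 1.01 ± 0.322 and 0.788 ± 0.0939 CPM (SD, n = 2 each). The summed counts put what was left at 75.5%, with an exact 95% interval from counting error of 39.6% to 143%, so no difference in Cdhr5 was detectable at this depth. Both genes of the tip link were thus weakly expressed in Control, and Cdhr2 was the one not detected in Trim33-deficient libraries. The difference between these 2 genes was not tested. Cdhr5 also depended on 1 library, with a log2 fold change of −0.37 (SE 0.54) and of 0.0026 without Control replicate 1.

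Slc2a2, the glucose transporter, was counted 53 and 74 times in Control and 3 and 0 times in Trim33-deficient bodies. These are 4.10 and 7.23 CPM against 0.216 and 0 CPM. From the summed counts, 2.14% was left, with an exact 95% interval of 0.436% to 6.40% that covers counting error only. The 2 Control libraries differed from each other, and both stood above both Trim33-deficient libraries. The fitted log2 fold change was −5.49 (SE 0.94), and as 1 library held 0 counts this value moved between −9.04 without Trim33-deficient replicate 1 and −4.64 without Trim33-deficient replicate 2. The authors' deposited table gives −5.70 for Slc2a2.

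The paralogs Slc2a1 and Slc2a3 were far more abundant than Slc2a2. Per kilobase of the longest annotated transcript, Slc2a1 (GLUT1) stood at 605 and Slc2a3 (GLUT3) at 335 CPM in Control, against 1.02 CPM for Slc2a2. In Trim33-deficient libraries the levels per kilobase were 357 CPM for Slc2a1 and 136 CPM for Slc2a3. Slc2a1 had a log2 fold change of −0.76 (SE 0.19), and Slc2a3 of −1.30 (SE 0.16), with edgeR adjusted p = 0.548 and 0.252. Both paralogs were lower in both Trim33-deficient libraries than in both Control libraries, at folds smaller than that of Slc2a2, and the difference between these folds was not tested. Slc2a4 (GLUT4), at 2.16 CPM per kilobase in Control, was higher in both Trim33-deficient libraries, with a log2 fold change of 0.51 (SE 0.25, edgeR adjusted p = 0.664). The fructose transporter gene Slc2a5 and the urate transporter gene Slc2a9 lay below Slc2a2 in Control, at 0.301 and 0.0728 CPM per kilobase, and had too few counts to be tested.

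Vil1, which bundles and severs actin filaments, was counted 268 and 357 times in Control and 96 and 66 times in Trim33-deficient bodies. The levels were 20.7 and 34.9 CPM against 6.92 and 5.64 CPM. The Control libraries differed by more than their counting intervals, of 18.3 to 23.3 and 31.3 to 38.7 CPM, and still lay well above the other group. The log2 fold change was −2.14 (SE 0.34), so 22.6% was left. Between the libraries numbered 1 the log2 ratio was −1.58, and between those numbered 2 it was −2.63. Vil1 shares 49 exonic bases with Usp37, an opposite-strand neighbour with 739 to 1058 counts per library, and whether strand was used in counting is not stated.

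Espn, the other bundling protein, was counted 378 and 247 times in Control and 205 and 150 times in Trim33-deficient bodies. The levels were 29.2 and 24.1 CPM against 14.8 and 12.8 CPM, and 51.7% was left. The log2 fold change was −0.95 (SE 0.20), and the log2 ratio was −0.98 between libraries numbered 1 and −0.91 between those numbered 2. Espn was lower by nearly the same ratio in both. Espn also builds the stereocilia of inner ear hair cells. Of the 10 hair cell markers, Myo7a was lower in both Trim33-deficient libraries as Espn was, with 320 and 281 against 194 and 166 counts. Atoh1 overlapped between the groups, with 68 and 27 against 64 and 25 counts. Tmc1 was at 0 counts in every library, and Pou4f3 and Strc had at most 2. The part of such cells in the Espn difference was not tested.

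Ezr, the membrane linker, was the most abundant of the 7 genes, counted 4968 and 3324 times in Control and 3714 and 4004 times in Trim33-deficient bodies. The levels were 384 and 325 CPM against 268 and 342 CPM. The groups overlapped, as the higher Trim33-deficient library lay above the lower Control library. The log2 fold change was −0.22 (SE 0.17), smaller than its spread between libraries, with a log2 ratio of −0.52 between libraries numbered 1 and of 0.075 between those numbered 2. The counting intervals of these 4 levels are narrow, so depth did not limit this comparison. It moved from −0.40 without Trim33-deficient replicate 2 to −0.046 without Trim33-deficient replicate 1.

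Ezrin has 2 close relatives, radixin (Rdx) and moesin (Msn), which link actin to the membrane in other cells too. Per kilobase, Ezr stood at 112 CPM in Control, Rdx at 115 CPM and Msn at 71.8 CPM. In Trim33-deficient libraries they stood at 96.4, 128 and 102 CPM. Msn was above Control in both Trim33-deficient libraries, with a log2 fold change of 0.51 (SE 0.20, edgeR adjusted p = 0.644). Rdx overlapped between the groups, at 0.15 (SE 0.25), and changed sign without Control replicate 1 (−0.16). None of the 3 linkers passed the edgeR test, which called 0.0140% of all genes lower and 0% higher.

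Pdzk1, the apical scaffold, was counted 313 and 206 times in Control and 98 and 87 times in Trim33-deficient bodies. Control averaged 22.2 ± 2.88 CPM and Trim33-deficient bodies 7.25 ± 0.256 CPM (SD, n = 2 each), which left 32.7%. The log2 fold change was −1.61 (SE 0.22), and the authors' deposited table gives −1.60. The 2 Trim33-deficient libraries were almost level, and the lower Control library stood at 20.1 CPM. In GENCODE M21 on GRCm38, 41.7% of the exonic bases of Pdzk1 also lie in exons of 3 other genes, most of them in Gpr89 with 1333 shared bases. Gpr89 was counted 351 and 327 times in Control and 380 and 299 times in Trim33-deficient bodies, and the groups overlapped. Whether the annotation behind the counts has the same overlap was not tested.

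**Figure D2:**
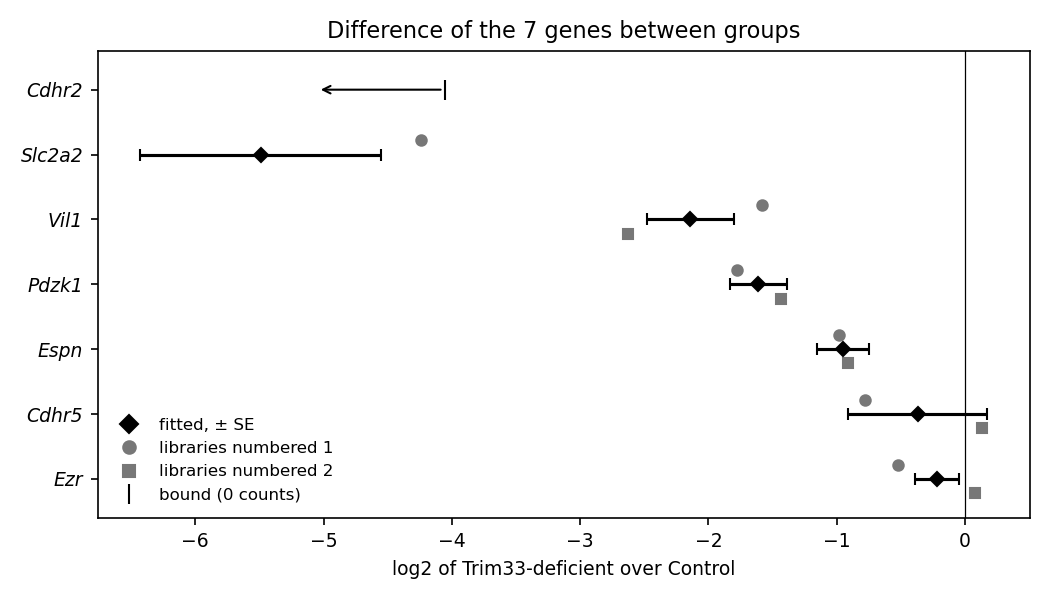
Log2 ratio of Trim33-deficient over Control for the 7 genes; diamonds with bars are fitted values ± SE, grey circles and squares the ratios of the libraries numbered 1 and 2, and the arrow for Cdhr2 starts at its bound of −4.06. Slc2a2 has 1 grey point because its second Trim33-deficient library has 0 counts; Cdhr5 and Ezr have points on both sides of 0.

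The order of the levels per kilobase changed between the groups. In Control, Ezr (112 CPM per kilobase) was followed by Vil1 (8.89), Pdzk1 (8.17), Espn (5.77), Slc2a2 (1.02), Cdhr2 (0.951) and Cdhr5 (0.384). Vil1 and Pdzk1 overlapped in range, as did Slc2a2 and Cdhr2, and the other neighbours did not. In Trim33-deficient libraries Ezr was still highest, at 96.4, and then came Espn (2.99), Pdzk1 (2.67), Vil1 (2.01), Cdhr5 (0.300), Slc2a2 (0.0194) and Cdhr2 (0 counts). Vil1 thus stood at rank 2 in Control and rank 4 in Trim33-deficient libraries. The ranges of the last pair overlapped. Lengths come from the longest transcript in the annotation, not from the isoform in these cells.

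Other genes of the brush border and its supply were taken in 6 lists, 119 genes in the files and 94 tested, chosen with earlier results of these data known. Genes named from them beyond the 4 with the smallest p in each list and the glucose transporter and linker paralogs were picked with their values in view. The edgeR test called 0 of the 94 in either direction, where it called 0% of all genes higher. At an unadjusted p under 0.05, 25 were lower and 0 higher, where 4.78% of all genes tested were lower and 3.06% higher. DESeq2 called 10 lower and 0 higher, against 0.807% and 0.182% of all genes. In 35 of the 94 both Trim33-deficient libraries were below both Control libraries and in 10 above, where 21.4% and 19.3% of all genes were so. The median log2 fold change of the 94 was −0.13. The DESeq2 count of 10 changed with each library left out, as did its number of calls among all genes.

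**Figure D3:**
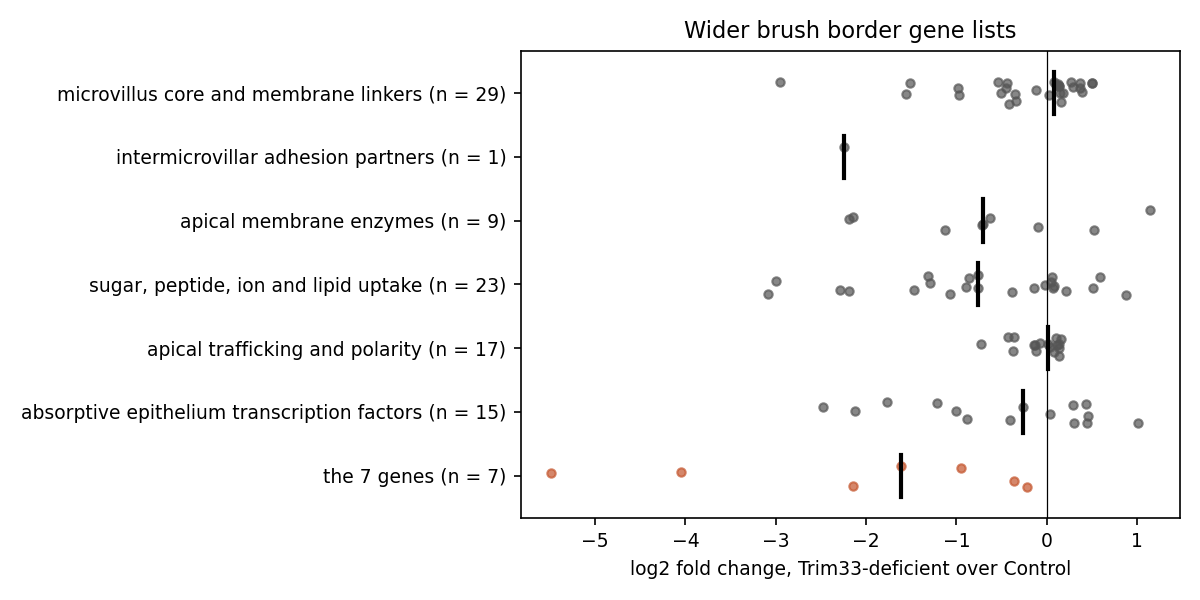
Log2 fold change of every tested gene in the 6 wider lists and of the 7 genes (Cdhr2 at its bound); each point is a gene and black lines are medians. The microvillus and the trafficking lists centre near 0, with medians of 0.075 and 0.014, and single genes of the uptake list reach −3.09.

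Of the 29 genes of the microvillus core and its linkers, all tested, 13 were below 0 and 16 above, with a median of 0.075, and in 8 the Trim33-deficient libraries were both lower and in 4 both higher, where 21.4% and 19.3% of all genes were so. Pls1, the plastin that bundles actin beside villin and espin, was counted 204 and 164 times in Control and 76 and 62 times in Trim33-deficient bodies. The fitted log2 value was −1.56 (SE 0.23, edgeR adjusted p = 0.316). Pdzd3, a PDZ protein related to Pdzk1, was at −2.95 (SE 0.52) on 43 and 30 against 4 and 6 counts. The minus-end motor gene Myo6 was at −0.97 and Slc9a3r1, the ezrin-binding scaffold EBP50, at −0.45. DESeq2 called Pls1 and Myo6 of this list, where it called 0.807% of all genes lower. The broadly used actin gene Actb was at 0.26 and the bundler Fscn1 at 0.18, both higher in both Trim33-deficient libraries and neither past an unadjusted p of 0.05.

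The binding partners of the tip-link protocadherins were near the limit of detection. Anks4b was counted 26 and 14 times in Control and 6 and 3 times in Trim33-deficient bodies, a log2 fold change of −2.25 (SE 0.59, edgeR adjusted p = 0.548). Of the 4 partners it alone had enough counts to be tested. Ush1c had 14 and 7 against 3 and 5 counts, Calml4 7 and 7 against 1 and 5, and Myo7b 3 and 7 against 4 and 2. Both Trim33-deficient libraries were lower for Ush1c and Calml4, at counts too small for a fold to be given.

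Of the apical membrane enzymes, 9 of 17 were tested, 7 of them below 0 with a median of −0.71. Dpp4, a brush border peptidase that releases dipeptides from the N-terminus of peptides, was counted 556 and 659 times in Control and 181 and 121 times in Trim33-deficient bodies. It was at −2.19 (SE 0.27, edgeR adjusted p = 0.252), and the authors' deposited table gives −2.19 as well. The aminopeptidase A gene Enpep was at −2.15 (SE 0.57), with −3.13 when Trim33-deficient replicate 1 was left out and −1.58 when replicate 2 was. Ggt1 and Alpl, which encode gamma-glutamyltransferase and an alkaline phosphatase, were at −1.13 and −0.71. Alpl overlapped between the groups and was at −0.11 without Control replicate 1. The aminopeptidase N gene Anpep was at 0.53 (SE 0.54) with overlapping groups, on 220 and 407 against 367 and 645 counts. Lct, which encodes lactase, had 4 and 6 counts in Control against 13 and 12, higher in both Trim33-deficient libraries, at 1.14 (SE 0.61, edgeR adjusted p = 0.678). Of the other digestive enzymes, Alpi and Treh had 0 counts in every library, Sis at most 1 and Mgam at most 2.

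Genes of uptake had a median of −0.76 over 23 tested of 34, with 15 below 0. In 12 both Trim33-deficient libraries were lower and in 1 both higher, where 21.4% and 19.3% of all genes were so. Mttp, which loads lipid onto apolipoprotein B, was counted 900 and 947 times in Control and 261 and 196 times in Trim33-deficient bodies. It was at −2.19 (SE 0.20, edgeR adjusted p = 0.178). The zinc transporter gene Slc39a5 was at −3.09 (SE 0.40) and the cystine transporter subunit gene Slc7a9 had 59 and 43 counts against 10 and 4. DESeq2 called these 3 genes with Slc2a1 and Slc2a3, where it called 0.807% of all genes lower. Slc9a3, the apical sodium-hydrogen exchanger, had 31 and 4 counts in Control and 0 in both Trim33-deficient libraries, and it was not tested because of its low counts. Scarb1, a lipoprotein receptor that Pdzk1 binds in liver, was at 0.081 with overlapping groups.

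Apical trafficking and polarity genes ranged from −0.73 to 0.16. Of 17 tested, 8 were below 0, with a median of 0.014. Myo5b, the motor that carries recycling vesicles to the apical membrane, was at −0.73 (SE 0.21) and the syntaxin partner Stxbp2 at −0.43 (SE 0.13). Rab11a was at −0.14 and Rap2a at 0.16. For these 4 genes edgeR gave an adjusted p of 0.574 to 0.751.

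Among transcription factors of absorptive epithelia, 8 of 15 tested were below 0, with a median of −0.26. Hnf4a was counted 345 and 440 times in Control and 77 and 81 times in Trim33-deficient bodies, a log2 fold change of −2.48 (SE 0.32, edgeR adjusted p = 0.252). Foxa3 was at −1.22 (SE 0.37). Both genes were among 6 of the 15 with both Trim33-deficient libraries below both Control libraries. In 1, Klf4, both were above, at 0.46 (SE 0.27). Of all genes tested, 21.4% were lower in both and 19.3% higher in both. The highest value in the list was 1.004 (SE 0.842) for Gata6. Maf was at 0.445 and Gata5 at 0.436, and the groups overlapped for Gata6, Maf and Gata5. The intestinal factor Cdx2 was at 0.29 with overlapping groups, and Hnf4g had 0 counts in every library.

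Markers of several cell types, among them those that carry brush borders, were read beside these genes. The marker lists were chosen with earlier results of these data known. Of all genes tested, 21.4% were lower in both Trim33-deficient libraries and 19.3% higher in both, the shares to set beside each such count below. Of 13 visceral endoderm markers in the files, all were tested and all 13 had both Trim33-deficient libraries below both Control libraries. Their summed level was 1832 and 2197 CPM in Control and 564 and 533 CPM in Trim33-deficient libraries, and none was at 0. Hnf4a is in this list and in that of the transcription factors. Of the factors in that other list alone, Foxa2 and Foxa3 were lower in both Trim33-deficient libraries. Gata4, Gata6 and Foxa1 overlapped between the groups. The 12 intestinal markers summed to 33.9 and 40.1 CPM in Control and 34.0 and 43.5 CPM in Trim33-deficient libraries, with Alpi at 0 and Sis at or under 1 count. Cdx2 alone gave 14.53 and 22.36 CPM of these sums in Control and 17.96 and 27.07 CPM in Trim33-deficient libraries. The sums therefore say little about the other markers of this list. Of the 6 tested, 4 were below 0, 0 were lower in both and 1, Lct, was higher in both. Among those with too few counts to be tested, Cdx1 and Fabp2 were lower in both and Cdh17 higher in both. Proximal tubule markers summed to 23.1 and 21.7 CPM in Control and to 25.8 and 26.8 CPM in Trim33-deficient libraries. Of 3 tested, 2 were below 0, 1 was lower in both and 1, Aqp1, higher in both. The defining Slc34a1 and Kap were at 0. Hair cell markers summed to 31.8 CPM or more in Control and to 20.1 CPM or less in Trim33-deficient libraries, with 3 of 3 tested below 0 and 1 lower in both, of which Myo7a alone gave 26.1 and 14.1 CPM on average. Parietal endoderm markers summed to 2470 and 3165 CPM in Control and 2408 and 3477 CPM in Trim33-deficient libraries, with 5 of 8 below 0 and 2 lower in both. Hepatocyte markers summed to 1.24 and 37.7 CPM in Control and 10.2 and 18.3 CPM in Trim33-deficient libraries. Most of each sum came from Tdo2 alone, with 12 and 384 against 139 and 213 counts. Alb, Cyp2e1, Cyp3a11 and Serpina1a were at 0. The 13 listed visceral endoderm markers moved with the 5 genes whose groups did not overlap, and their part in those differences was not tested.

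**Figure D4:**
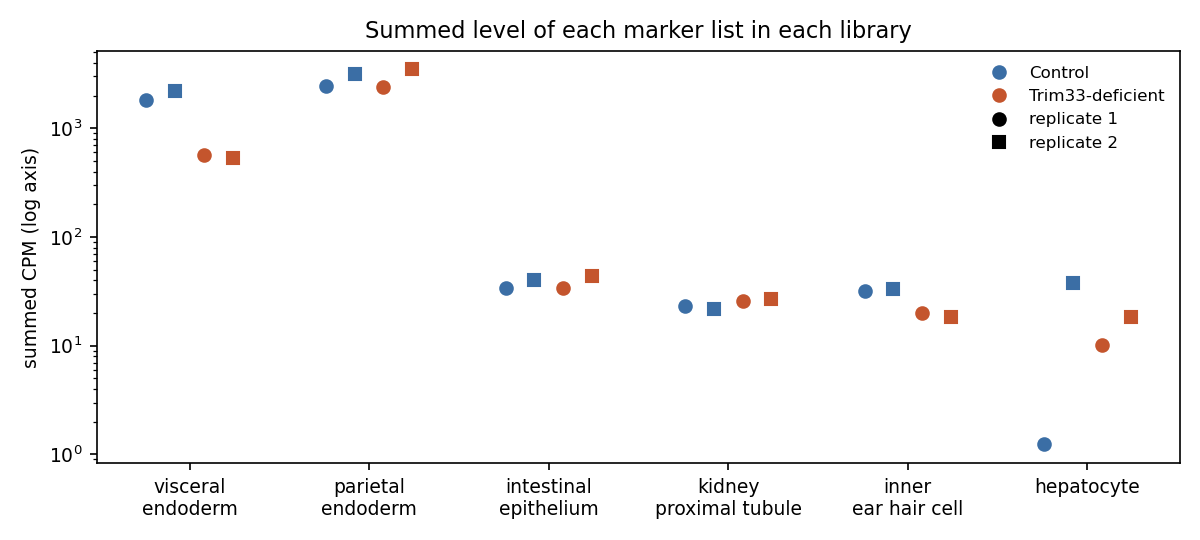
Summed level of each marker list in each library, in CPM on a log axis; circles are libraries numbered 1 and squares libraries numbered 2. The visceral endoderm list is at 1832 and 2197 CPM in Control and at 564 and 533 CPM in Trim33-deficient libraries, whereas intestinal and parietal endoderm lists overlap between the groups. The intestinal sums include 14.53 to 27.07 CPM from Cdx2 alone.

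The genes with the profile closest to the median of the 7 were found by Euclidean distance between centred log2 CPM over the 4 libraries, among genes of at least 2 CPM on average. They were Pappa, Bnip3, Pls1, Enpp2 and 1700029J07Rik, at distances of 0.153, 0.160, 0.174, 0.227 and 0.246 log2 units. Pls1 is also the microvillus bundler named above. Pappa encodes a secreted protease of IGF-binding proteins and Bnip3 a mitophagy receptor. With 4 libraries in 2 groups, a profile holds little more than the difference between the groups, which was −1.43 for Pappa, −1.44 for Bnip3 and −1.56 for Pls1.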

How the data were processed

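The titles put the 4 libraries into Control (2) and Trim33-deficient (2). The authors deposited an unnormalised count for each gene symbol and library. STAR, HTSeq, DESeq and build mm9 are named, with no role or version, per the submitters' processing notes. Reads in 5 rows that name no gene, 55.7% to 56.2% per library, were left out. A deposited table of the authors' own test holds a fold ratio, its log2 and p-values for 84 genes (70 lower, 14 higher), per the file headers. Its 3 columns of means were not used. It names its groups A and B, and B over A had the direction of Trim33-deficient over Control for all 84 genes when ratios were recomputed from the counts.

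The filter was filterByExpr (minimum count 10) and the scaling TMM. The two-sided test was edgeR 4.0.16 (quasi-likelihood F-test, no replicate block, Benjamini-Hochberg adjustment over 14259 genes, threshold 0.05) in R 4.3.3. Alternatives were DESeq2 1.42.0, limma 3.58.1 voom, other scaling and filters, the block and each library left out. The code was tested on simulated data. Log2 CPM used a prior count of 2. Intervals are exact at 95%, and these and the floor of 3 counts cover counting error only. A standard error is the size of a log2 fold change over the root of its F statistic. Lengths came from GENCODE M21, and 118 of 119 genes of the wider lists had one.

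The members, lists and motifs were chosen with earlier results of these data known. Named genes were the 7 members, Trim33, the 4 genes with the smallest p in each wider list, the paralogs Msn, Rdx, Slc2a1 and Slc2a3, and the 5 nearest profiles. Some results that this rule or the motif search covers are not reported here. Same-numbered libraries were taken as the pairs that the labels mention. Over genes, their deviations from group means had a Pearson r of 0.236 and a Spearman rho of 0.207. The 2 replicates of a group were not duplicates (chi-square per degree of freedom 35.7 for Control and 24.3 for Trim33-deficient). A p-value sets the difference between groups against the spread of these libraries only, estimated with information from all genes tested. That spread may be technical.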

Additional observations from a re-analysis of the deposited data

How the results depend on the processing

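With 2 libraries a group, edgeR called 2 genes lower and 0 higher. DESeq2 called 115 lower and 26 higher, limma voom 0 lower, and edgeR without a filter on low counts 14 lower. With each library left out edgeR called 0 to 29 lower and 0 to 11 higher. Of the wider lists, 0 genes were called lower by edgeR, 10 by DESeq2, 1 without the low count filter, and 0 to 3 as libraries were left out. The DESeq2 fits without single libraries, chosen after seeing the data, called 5 to 11. Fits that leave a group with 1 library take its variation from the other group. The cause of these differences was not tested.

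The median log2 fold change of the 7 genes was −1.61 and ranged from −1.72 to −1.48 as libraries were left out. With the stricter filter on low counts it was −1.28, because Cdhr2, Cdhr5 and Slc2a2 were then not tested. With the replicate block it was −1.61, 2 genes were called lower and 0 higher, none of them among the 7 or the wider lists, so the pairing changed no call for these genes. Of the 7 genes, 6 kept their sign under each alternative that tested them, and Cdhr5 did not. Counts under about 20 per library limit Cdhr5, Ush1c, Myo7b, Calml4 and Lct. In the Trim33-deficient libraries such counts also limit other genes, among them Anks4b, Pdzd3 and Slc7a9.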
